A study of Mus musculus with 36 samples.

Results

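The 10 genes described here carry the main steps by which hepatocytes make, conjugate, export, take up and sense bile acids: Cyp7a1, Cyp8b1, Cyp27a1, Cyp7b1, Slc27a5, Baat, Abcb11, Slc10a1, Nr1h4 and Nr0b2. They were listed by name for their known roles, with earlier results of these data already known, and were followed through every liver library of the study. All 10 were found among the 136300 features of the liver count table, and all 10 were among the 23875 features with enough counts to be tested. The study asked how the loss of Vps15 (encoded by Pik3r4), a regulatory partner of the class 3 phosphoinositide 3-kinase Vps34, alters the response of the liver to fasting. Polyadenylated RNA was sequenced in 12 liver libraries from 4-week-old male mice, with liver taken at zeitgeber time 14, in 4 groups of 3 libraries. Wild-type mice (labelled WT, with no further genotype) were either fed freely or fasted for 24 h. Knockout-labelled mice were also fed freely or fasted for 24 h and are given as Ttr CRE+, Vps15f/f, meaning floxed Vps15 alleles and Cre under the promoter of the hepatocyte gene Ttr. Other liver cells therefore keep the gene where Cre is not expressed, and whether the control mice carried floxed alleles or Cre is not given in the sources used here. The libraries were made from powdered whole liver. In such bulk samples fewer hepatocytes and less of an RNA per hepatocyte cannot be told apart.

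Bile acids are made from cholesterol. The classic route starts with Cyp7a1 (cholesterol 7α-hydroxylase), the alternative route with the mitochondrial sterol 27-hydroxylase Cyp27a1 followed by the oxysterol 7α-hydroxylase Cyp7b1, and Cyp8b1 (sterol 12α-hydroxylase) sets the share of cholic acid. Slc27a5 activates bile acids to their CoA esters, Baat joins them to taurine or glycine, Abcb11 (the bile salt export pump) moves them into the canaliculus, and Slc10a1 (the sodium-dependent carrier NTCP) takes them back up from blood. The bile acid receptor Nr1h4 (FXR) raises Abcb11 and Nr0b2 (SHP), and Nr0b2 in turn represses Cyp7a1 and Cyp8b1 by acting on the receptors NR5A2 and HNF4A that drive them.

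Promoter windows were examined because these factors bind near the starts of several genes of the pathway. RefSeq sequence of the 250 bases before a transcript start (GRCm38.p6) was matched for 6 of the 10 genes and not for Cyp7a1, Cyp7b1, Baat or Slc27a5. The NR5A2 site CAAGGNCA, searched on both strands, was in 5.53% of 32851 windows of that length, and was present in the windows of Cyp8b1 (60 to 53 bases before the start) and Nr0b2 (201 to 194 bases before). The FXR inverted repeat (AGNTCA, any 1 base, TGANCT) and the HNF4A direct repeat (AGGNCA, any 1 base, AGGNCA) were each in under 1% of windows (0.0274% and 0.338%) and had no match in these genes. With a wider inverted repeat (AGGNCA, any 1 base, TGANCT), chosen after the sequences were seen and present in 0.0731% of windows, Abcb11 had a match 63 to 51 bases before its start. None of these motifs matched in the windows of Cyp27a1, Slc10a1 or Nr1h4, which says only that these letters are not in them. The 3 windows with a match are printed 5′ to 3′ on the gene's strand, with the matched bases in capitals. They lie at chr9:121916306-121916555 (minus strand, Cyp8b1), chr2:69342617-69342866 (minus strand, Abcb11) and chr4:133553126-133553375 (plus strand, Nr0b2).
Cyp8b1: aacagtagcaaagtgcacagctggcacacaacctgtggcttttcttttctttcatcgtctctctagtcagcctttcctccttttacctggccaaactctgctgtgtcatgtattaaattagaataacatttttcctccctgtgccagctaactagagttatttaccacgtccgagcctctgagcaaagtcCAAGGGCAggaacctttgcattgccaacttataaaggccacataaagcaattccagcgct
Abcb11: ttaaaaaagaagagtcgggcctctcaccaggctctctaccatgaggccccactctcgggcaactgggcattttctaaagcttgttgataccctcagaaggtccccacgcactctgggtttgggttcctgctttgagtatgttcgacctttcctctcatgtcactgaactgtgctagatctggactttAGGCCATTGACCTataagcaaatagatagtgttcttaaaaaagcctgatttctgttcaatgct
Nr0b2: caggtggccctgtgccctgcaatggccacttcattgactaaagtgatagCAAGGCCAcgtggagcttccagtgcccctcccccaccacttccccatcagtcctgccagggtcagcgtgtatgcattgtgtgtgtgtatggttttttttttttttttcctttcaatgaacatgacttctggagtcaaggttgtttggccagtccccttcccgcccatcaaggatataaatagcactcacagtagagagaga
A match is a description of the letters, and no factor binding was measured here.

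The liver libraries held 9110836 to 12870944 counts. Levels are given in CPM, that is, counts per library brought to 1 common depth after scaling by TMM (trimmed mean of M-values), and a, b and c name the libraries within each group. Pik3r4, the gene named by the labels, stood at 23.1, 17.6 and 22.9 CPM in fed wild-type, 21.01, 24.7 and 21.2 in fasted wild-type, 24.6, 22.2 and 25.3 in fed knockout-labelled and 21.1, 24.0 and 18.2 in fasted knockout-labelled libraries. The groups overlapped, and the log2 fold change of knockout-labelled against wild-type liver was 0.18 in fed mice (adjusted p = 0.312) and -0.08 in fasted mice (adjusted p = 0.663). Which exons are floxed is not stated, and transcript left after their loss would still be counted, so these totals are no check of the label and the knockout groups are named by it. The 15 hepatocyte markers summed to 42989 to 45624 CPM in fed and 51683 to 53954 in fasted wild-type libraries, but to 20403 to 23219 and 21321 to 24428 in the knockout-labelled groups. Macrophage markers (12 genes) went the other way in the knockout-labelled groups, 1598 to 2101 and 529 to 735 CPM in fed and fasted wild-type against 2776 to 3165 and 2549 to 2913. Cholangiocyte markers (12 genes) summed to 111 to 122, 86.3 to 103, 208 to 281 and 248 to 346 CPM in the same order of groups, and at most 2 of the 12 were at 0 counts in any library. In 2 groups a library stood apart for genes described below: fed wild-type library a in sex-biased genes, and fed knockout-labelled library a in Cyp7a1 and Cyp8b1.

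In knockout-labelled liver, RNA of nearly the whole bile acid gene set was low. In fed mice 9 of the 10 genes were lower than in wild type and 0 higher, against 23% of all tested features called lower and 23.4% called higher. In fasted mice 10 of 10 were lower and 0 higher, against 28.1% lower and 28.2% higher. Their median log2 fold change was -2.38 in fed and -2.58 in fasted liver, where the median of all tested features was 0.01 in both. The 9 genes called in fed liver and the 10 in fasted liver had no overlap between knockout-labelled and wild-type libraries. Of all 23875 tested features, 11060 were called in fed and 13422 in fasted liver. The share of all features without overlap is not given here, so the lack of overlap is a description only. The summed level of the 10 genes was 3063 to 4096 CPM in fed wild-type, 4798 to 4851 in fasted wild-type, 492 to 672 in fed knockout-labelled and 463 to 686 in fasted knockout-labelled libraries.

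**Figure D1:**
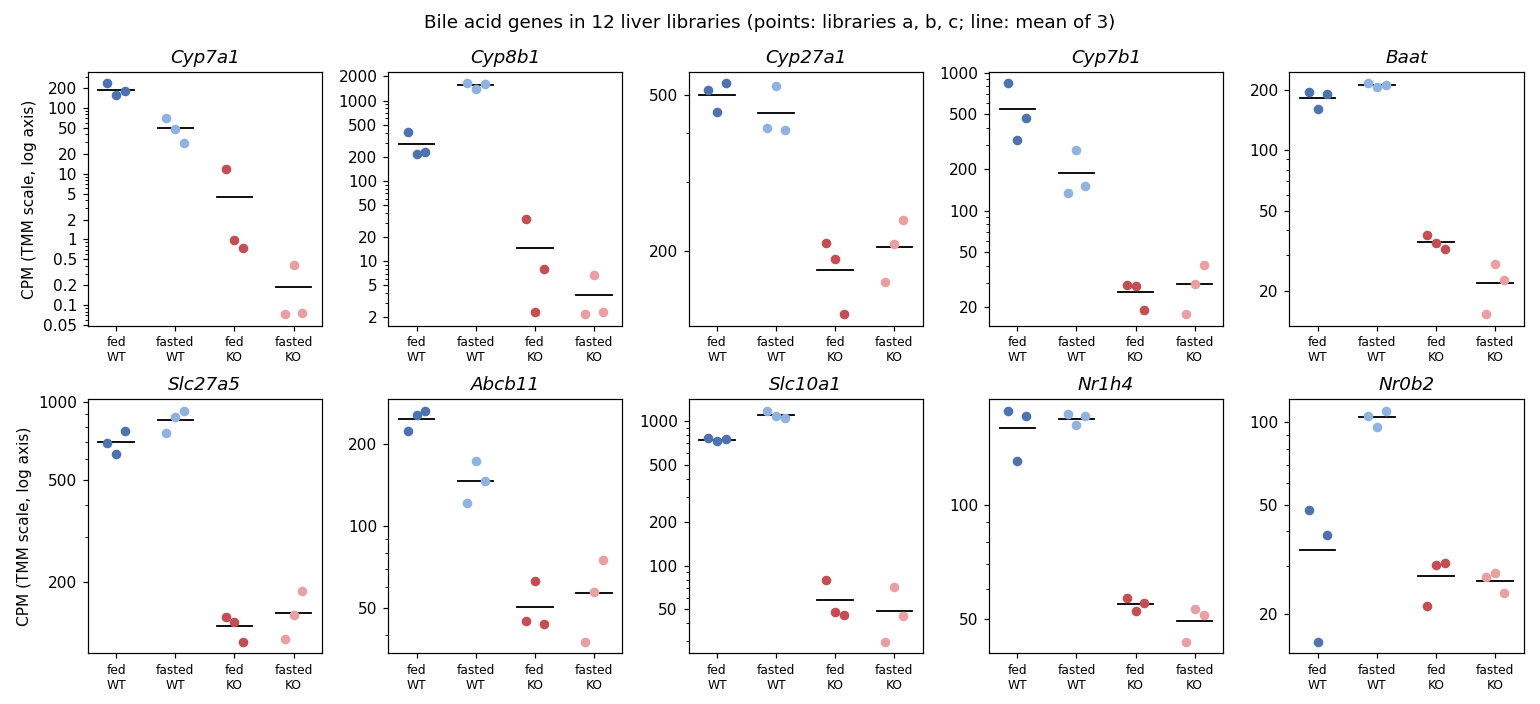
Level of each of the 10 bile acid genes in the 12 liver libraries, in CPM on a log axis; each point is a library and each bar a group mean (n = 3). Knockout-labelled libraries lie below the wild-type ones in the same feeding state for every gene except Nr0b2 in fed liver.

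The synthesis enzymes covered the widest range. Cyp7a1 (ENSMUSG00000028240, chromosome 4, 6265612 to 6275633, minus strand, mm10) stood at 237, 157 and 180 CPM in fed wild-type libraries a, b and c and at 70.9, 47.6 and 29.6 in fasted wild-type libraries. Fed knockout-labelled libraries held 11.6, 0.975 and 0.737 CPM, and fasted ones 0.0727, 0.409 and 0.0760 CPM, which are only 1, 6 and 1 counts. The 4 groups did not overlap, and fed knockout-labelled library a was far above the other two of its group. Cyp7a1 was 43.4-fold lower in knockout-labelled than in wild-type fed liver (log2 fold change -5.44 ± 0.65 SE, adjusted p = 7.5e-06), and without library a the log2 fold change was -7.78. In fasted liver the fitted log2 fold change was -7.93 ± 0.97 (adjusted p = 5.11e-06). Pooled over libraries, 8 counts against 1145 gave a level 259 times lower, with a 95% counting interval of 131 to 601 times.

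With fasting, Cyp7a1 fell in wild-type liver by 1.95 ± 0.54 on the log2 scale (adjusted p = 0.015). That call was lost without fasted wild-type library c (-1.70, adjusted p = 0.069) and with DESeq2 (-1.96, adjusted p = 0.155). In knockout-labelled liver the fasting change was -4.44 ± 1.18 (adjusted p = 0.0697), and the pooled counts, 8 against 195, gave a level 22.6 times lower (counting interval 11.2 to 53.1). Fed library a carried most of that difference. Without it the fasting change was -2.10 (adjusted p = 0.271), without fed library b it was -4.92 (adjusted p = 0.0407), and with DESeq2 it was -4.56 (adjusted p = 0.00415). The fasting change did not differ between genotypes past the threshold (difference -2.49 ± 1.46, 95% interval -5.59 to 0.61, adjusted p = 0.305).

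Cyp8b1 (ENSMUSG00000050445, chromosome 9, 121914356 to 121916305, minus strand), whose product directs synthesis towards cholic acid, moved the other way from Cyp7a1 when wild-type mice fasted. Its wild-type levels were 410, 216 and 230 CPM fed and 1638, 1398 and 1601 CPM fasted, a rise of 2.44 ± 0.59 on the log2 scale (adjusted p = 0.00631). DESeq2 gave no adjusted p for this change. In knockout-labelled libraries the levels were 33.8, 2.34 and 7.90 CPM fed and 2.18, 6.81 and 2.36 CPM fasted, with library a again highest in the fed group and an overlap between fed and fasted. The fasting change there was -1.93 ± 0.68 (adjusted p = 0.148), -0.42 without fed library a (adjusted p = 0.783) and -2.44 without fed library b (adjusted p = 0.0419).

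The rise of Cyp8b1 in wild type and its low level in fasted knockout-labelled liver made it the gene with the largest genotype difference of the 10 in fasted mice, -8.66 ± 0.80 on the log2 scale or 403-fold lower (adjusted p = 2.96e-07). In fed mice the difference was -4.29 ± 0.65 or 19.5-fold lower (adjusted p = 6.77e-05), and -5.80 without fed knockout-labelled library a. The fasting change was lower in knockout-labelled than in wild-type liver by 4.37 ± 0.89 on the log2 scale (interaction adjusted p = 0.00503). That interaction stayed past the threshold when any of the 12 libraries was left out, with values from -5.12 to -2.85.

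Cyp27a1 (ENSMUSG00000026170, chromosome 1, 74713574 to 74737892, plus strand), the mitochondrial enzyme of the alternative route, varied least among the enzymes. It stood at 517, 453 and 535 CPM in fed and 413, 527 and 408 in fasted wild-type libraries, and at 209.9, 191 and 138 in fed and 168, 209 and 239.8 in fasted knockout-labelled libraries. Fed and fasted libraries overlapped within each genotype, and both knockout-labelled groups lay below both wild-type groups. The genotype difference was 2.79-fold in fed liver (log2 fold change -1.48 ± 0.17, adjusted p = 5.12e-06) and 2.19-fold in fasted liver (-1.13 ± 0.17, adjusted p = 4.2e-05). Fasting changed it by -0.16 in wild type (95% interval -0.52 to 0.20, adjusted p = 0.528) and by 0.19 in knockout-labelled liver (-0.17 to 0.55, adjusted p = 0.599).

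Cyp7b1 (ENSMUSG00000039519, chromosome 3, 18071950 to 18243338, minus strand), the next enzyme of that route and one known to be higher in livers of male mice, stood at 836, 323 and 469 CPM in fed wild-type and 135, 275 and 151 in fasted wild-type libraries. Knockout-labelled libraries held 29.2, 28.5 and 19.2 CPM fed and 17.8, 29.5 and 40.6 CPM fasted. Wild-type fed and fasted libraries did not overlap, knockout-labelled ones did, and fed wild-type library a was the highest of all. Cyp7b1 was 21.2-fold lower in fed knockout-labelled liver (-4.40 ± 0.39, adjusted p = 3.91e-07) and 6.38-fold lower in fasted (-2.67 ± 0.37, adjusted p = 1.72e-05). It fell with fasting in wild type by 1.54 ± 0.35 (adjusted p = 0.00417) and changed by 0.19 in knockout-labelled liver (95% interval -0.57 to 0.95, adjusted p = 0.826).

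The genotype difference in the fasting change of Cyp7b1 was 1.73 ± 0.50 (adjusted p = 0.0336). It missed the threshold with DESeq2 (adjusted p = 0.0538) and without any one of 6 libraries, among them fed wild-type library a (1.29, adjusted p = 0.0777). The other 5 were fasted wild-type a and c (1.57 and 1.62), fed knockout-labelled a and c (1.84 and 1.56) and fasted knockout-labelled c (1.43). In fed wild-type libraries a, b and c, 13 male-biased liver genes summed to 2477, 833 and 1105 CPM and 15 female-biased genes to 566, 2084 and 2066 CPM. Library a, highest in Cyp7b1, was thus also highest in male-biased and lowest in female-biased genes. In fasted wild-type libraries, male-biased genes summed to 3422 to 4091 CPM and female-biased genes to 155 to 235 CPM. In knockout-labelled libraries the male-biased sum was 390.2 to 440.1 CPM fed and 373 to 441 fasted. The female-biased sum there was 695 to 1303 CPM fed and 321 to 1206 fasted. Most of it was Cyp2a4, with a mean of 932 CPM in fed and 559 in fasted knockout-labelled liver. Cyp2a4 was called higher in fed knockout-labelled than in fed wild-type liver (2.97 on the log2 scale, adjusted p = 0.00016), unlike most of the list. Of 12 female-biased genes tested, on TMM scaling 9 were lower and 1 higher in fed knockout-labelled liver, and 2 lower and 7 higher in fasted, while 12 of 13 male-biased genes were lower in both. Beside these stand 23% of all tested features lower and 23.4% higher in fed liver, and 28.1% and 28.2% in fasted. The part of these lists in the Cyp7b1 differences was not tested.

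Of the conjugation enzymes, Slc27a5 (ENSMUSG00000030382, chromosome 7, 12988346 to 12998192, minus strand) stood at 697, 631 and 771 CPM in fed and 763, 876 and 928 in fasted wild-type libraries, and at 147, 140.4 and 118 in fed and 121, 149 and 186 in fasted knockout-labelled libraries. Every knockout-labelled library was below every wild-type one. The genotype difference was 5.18-fold in fed (-2.37 ± 0.16, adjusted p = 2.83e-08) and 5.64-fold in fasted liver (-2.49 ± 0.16, adjusted p = 1.09e-08). The difference between these values was -0.12 (adjusted p = 0.777), and fasting changed the gene by 0.29 in wild type (95% interval -0.03 to 0.61, adjusted p = 0.179).

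Baat (ENSMUSG00000039653, chromosome 4, 49489422 to 49506557, minus strand), which attaches the amino acid, stood at 194, 159 and 191 CPM in fed and 215, 205 and 210.2 in fasted wild-type libraries. Knockout-labelled libraries held 37.7, 34.7 and 32.2 CPM fed and 15.3, 27.2 and 22.7 CPM fasted, with no overlap between fed and fasted in either genotype. It was 5.19-fold lower in fed (-2.38 ± 0.17, adjusted p = 3.92e-08) and 9.64-fold lower in fasted knockout-labelled liver (-3.27 ± 0.17, adjusted p = 2.08e-09). Fasting changed it by 0.21 in wild type (adjusted p = 0.348) and by -0.68 ± 0.16 in knockout-labelled liver (adjusted p = 0.054, and 0.00923 at -0.88 without fasted knockout-labelled library b). The genotype difference in the fasting change was -0.89 ± 0.23 (adjusted p = 0.0182), a call lost without fed wild-type library b (-0.80, adjusted p = 0.0513).

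Of the transporters, the export pump Abcb11 (ENSMUSG00000027048, chromosome 2, 69238282 to 69342616, minus strand) stood at 223, 255 and 266 CPM in fed and 122, 173 and 147 in fasted wild-type libraries. In knockout-labelled libraries it stood at 45.0, 63.3 and 43.7 CPM fed and 37.8, 57.3 and 75.2 CPM fasted, and these groups overlapped. Opposite-strand models overlap 2.64% (Gm13613) and 0.37% (Gm13614) of its exon bases, and whether counting used the strand is not given in the sources used here. Abcb11 was 4.89-fold lower in fed knockout-labelled liver (-2.29 ± 0.22, adjusted p = 7.51e-07) and 2.60-fold lower in fasted (-1.38 ± 0.21, adjusted p = 5.67e-05).

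Fasting lowered Abcb11 in wild type (-0.75 ± 0.21, adjusted p = 0.0151), a call lost without fasted wild-type library a (-0.64, adjusted p = 0.0674). In knockout-labelled liver it changed by 0.16 (95% interval -0.29 to 0.61, adjusted p = 0.741). The genotype difference in the fasting change, 0.92 ± 0.30 (adjusted p = 0.0583), passed the threshold with DESeq2 (adjusted p = 0.0287) and without fasted wild-type library b, fed knockout-labelled library b or fasted knockout-labelled library a (1.08, 1.11 and 1.14).

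Slc10a1 (ENSMUSG00000021135, chromosome 12, 80953183 to 80968705, minus strand), the uptake carrier, stood at 757, 722 and 749 CPM in fed and 1178, 1089.9 and 1043 in fasted wild-type libraries. Knockout-labelled libraries held 79.5, 47.9 and 46.0 CPM fed and 30.0, 71.2 and 44.9 CPM fasted. The wild-type groups did not overlap and the knockout-labelled groups did. It was 12.8-fold lower in fed (-3.68 ± 0.27, adjusted p = 6.58e-08) and 22.7-fold lower in fasted knockout-labelled liver (-4.50 ± 0.28, adjusted p = 9.43e-09), the largest genotype difference of the 10 genes after Cyp7a1, Cyp8b1 and, in fed liver, Cyp7b1. The fasting change was 0.57 ± 0.24 in wild type (adjusted p = 0.0991) and -0.25 in knockout-labelled liver (adjusted p = 0.655). With only the compared groups in the fit the wild-type change passed the threshold (0.56, adjusted p = 0.00146).

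The receptor Nr1h4 (ENSMUSG00000047638, chromosome 10, 89454234 to 89533585, minus strand) stood at 178, 130.4 and 172 CPM in fed and 174, 162 and 171 in fasted wild-type libraries, and at 56.8, 52.7 and 55.3 in fed and 43.6, 53.0 and 51.2 in fasted knockout-labelled libraries. Feeding states overlapped within each genotype and the genotypes did not overlap. Nr1h4 was 2.91-fold lower in fed (-1.54 ± 0.13, adjusted p = 1.68e-07) and 3.43-fold lower in fasted knockout-labelled liver (-1.78 ± 0.13, adjusted p = 2.43e-08). Its fasting change was 0.08 in wild type (95% interval -0.18 to 0.34, adjusted p = 0.671) and -0.15 in knockout-labelled liver (adjusted p = 0.562).

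Nr0b2 (ENSMUSG00000037583, chromosome 4, 133553376 to 133556536, plus strand), the repressor of the feedback loop, was the 1 gene of the 10 not called lower in fed knockout-labelled liver. It stood at 47.8, 15.9 and 39.0 CPM in fed wild-type, 105, 96.2 and 109.99 in fasted wild-type, 21.5, 30.3 and 30.7 in fed knockout-labelled and 27.4, 28.2 and 23.9 in fasted knockout-labelled libraries. The fasted wild-type group was above all other libraries, and the other 3 groups overlapped. Fed wild-type library b was the lowest of the 12. Nr0b2 rose with fasting in wild type by 1.60 ± 0.27 on the log2 scale (adjusted p = 0.000435) and changed by -0.05 in knockout-labelled liver (95% interval -0.62 to 0.51, adjusted p = 0.944).

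The genotype difference in the fasting change of Nr0b2 was -1.65 ± 0.37 (adjusted p = 0.0097) and stayed past the threshold when any library was left out (-1.95 to -1.31). Nr0b2 was 3.92-fold lower in fasted knockout-labelled liver (-1.97 ± 0.27, adjusted p = 1.59e-05). In fed liver the difference was -0.32 ± 0.27 (95% interval -0.89 to 0.25, adjusted p = 0.352). Without fed wild-type library b this became -0.66 (adjusted p = 0.0042), and without library a 0.0052 (adjusted p = 0.99). With library sizes alone in place of TMM it was 0.061.

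**Figure D2:**
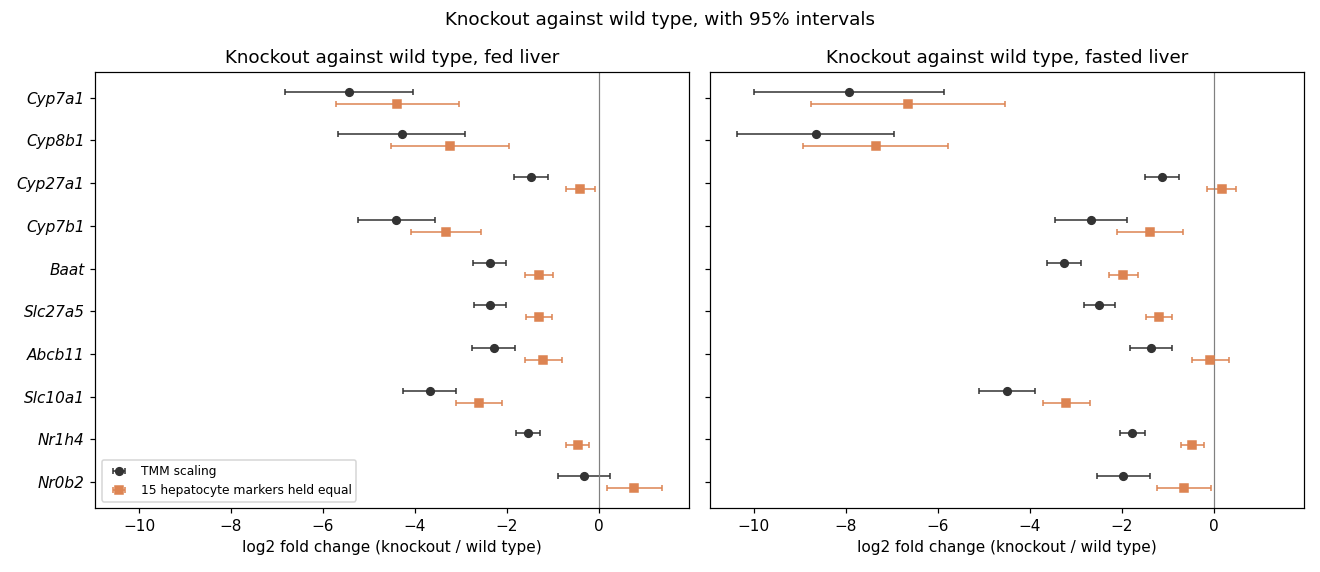
Log2 fold change of knockout-labelled against wild-type liver for the 10 genes in fed and fasted mice, with 95% intervals, on TMM-scaled libraries and with the hepatocyte markers held equal. On TMM scaling all intervals lie below 0 except Nr0b2 in fed liver (-0.32); with hepatocyte markers held equal, Cyp27a1 (0.17) and Abcb11 (-0.08) in fasted liver span 0 and Nr0b2 in fed liver lies above it (0.76).

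Since hepatocyte markers were also lower in knockout-labelled libraries, in 14 of 15 genes fed and 15 of 15 fasted (median -1.15 and -1.34), the differences were recomputed with library factors that hold the mean log2 level of these 15 markers equal. That scaling moved the median of all tested features to 1.09 in fed and 1.32 in fasted liver, and 74.7% and 77.2% of features were then called higher and 5.21% and 5.77% lower. Even so, 9 of the 10 bile acid genes were called lower in fed liver and 8 in fasted liver, with medians of -1.30 and -1.29. In fed liver Cyp7a1 differed by -4.39, Cyp7b1 by -3.33, Cyp8b1 by -3.24, Slc10a1 by -2.61, Baat and Slc27a5 each by -1.30 and Abcb11 by -1.21. The smallest differences there were those of Nr1h4 (-0.47) and Cyp27a1 (-0.41), and Nr0b2 was called higher (0.76 ± 0.28, adjusted p = 0.0213). In fasted liver Cyp8b1 differed by -7.35, Cyp7a1 by -6.65, Slc10a1 by -3.21, Baat by -1.97, Cyp7b1 by -1.38, Slc27a5 by -1.19, Nr0b2 by -0.65 and Nr1h4 by -0.47. Cyp27a1 (0.17, 95% interval -0.14 to 0.49) and Abcb11 (-0.08, -0.49 to 0.32) did not pass the threshold on that scale. On either scale Cyp7a1, Cyp8b1 and Slc10a1 were among the 4 lowest of the 10 genes in both feeding states. New library factors shift all genes of a comparison by nearly the same amount, so this order is no separate result.

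**Figure D3:**
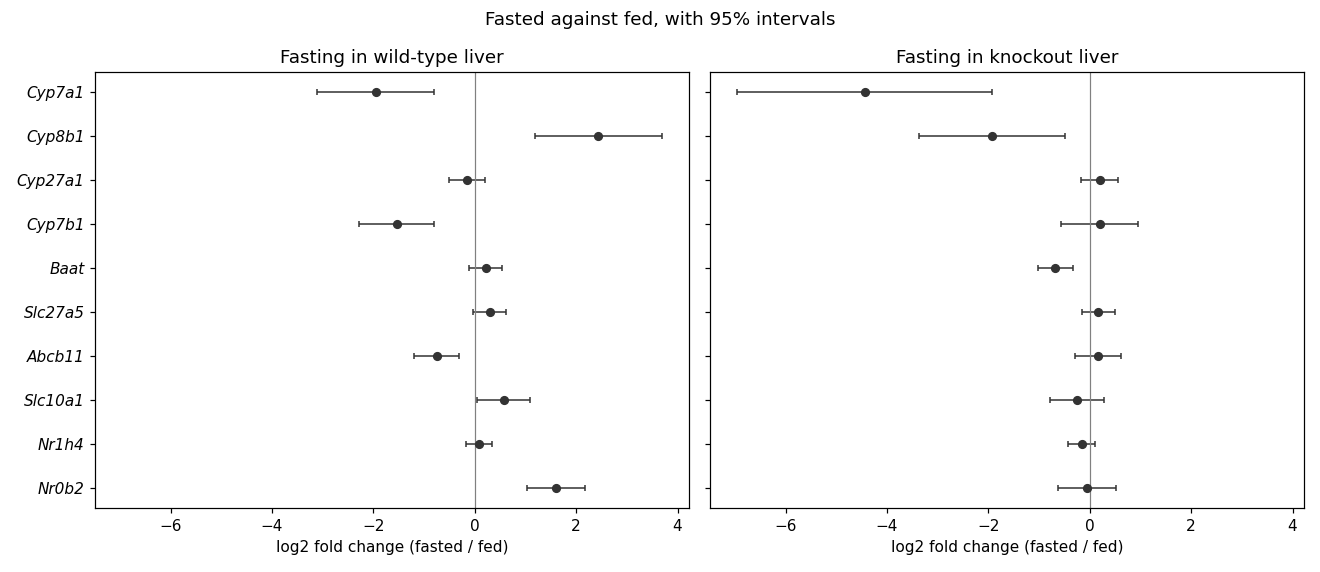
Log2 fold change of fasted against fed liver for the 10 genes in wild-type and in knockout-labelled mice, with 95% intervals. In wild type Cyp8b1 (2.44), Nr0b2 (1.60) and Slc10a1 (0.57, adjusted p = 0.0991) lie above 0 and Cyp7a1 (-1.95), Cyp7b1 (-1.54) and Abcb11 (-0.75) below it, while 7 of 10 knockout-labelled intervals span 0.

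Seen across the 10 genes, fasting in wild-type liver raised Cyp8b1 and Nr0b2 and lowered Cyp7a1, Cyp7b1 and Abcb11. These are 2 higher and 3 lower of 10, against 12.4% and 14% of all tested features, with a member median of 0.15. In knockout-labelled liver 0 of the 10 genes passed the threshold in edgeR, against 0.792% of features called higher and 0.599% called lower. There 3 of the 10 had an unadjusted p under 0.05 in edgeR (Cyp7a1, Cyp8b1 and Baat, all lower), against 4255 of all 23875 tested features. After adjustment 332 of all features passed in edgeR. With DESeq2 2 of the 10 passed, and its larger count over all features is given in the closing section. The difference in fasting change between genotypes passed the threshold for 4 of 10 genes, higher for Cyp7b1 and lower for Cyp8b1, Baat and Nr0b2, against 6.35% of features higher and 5.7% lower. The genotype and fasting comparisons share libraries, so the values of a gene in them are not independent of each other.

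Levels of different genes were compared as CPM per kilobase of exon. In fed wild-type liver Slc10a1 had the highest mean (338), above Slc27a5 (287), Cyp7b1 (250), Cyp27a1 (231) and Cyp8b1 (146). The range of Slc10a1 (328 to 344) lay within that of Cyp7b1 (149 to 386), and Cyp7b1 was above Slc10a1 in library a. From Slc27a5 to Cyp8b1 each gene overlapped the next. Then came Baat (93.3), Nr1h4 (69.4), Abcb11 (48.2), Cyp7a1 (45.8) and Nr0b2 (30.2). There Cyp7a1 overlapped both Abcb11 and Nr0b2, which did not overlap each other. The highest Cyp7a1 value (56.70) also just passed the lowest of Nr1h4 (56.62). Fasting put Cyp8b1 first in wild type (793), above Slc10a1 (502), Slc27a5 (351), Cyp27a1 (207) and Baat (108). Next were Nr0b2 (91.8), Cyp7b1 (86.3) and Nr1h4 (73.4), and Abcb11 (28.6) and Cyp7a1 (11.8) were last. The range of Cyp7b1 (62.3 to 127) overlapped those of Baat, Nr0b2 and Nr1h4. The order in fed knockout-labelled liver began with Cyp27a1 (82.7) and Slc27a5 (55.4), followed by Slc10a1 (26.3), Nr0b2 (24.3) and Nr1h4 (23.8), which overlapped. Below these by mean was Baat (18.0), whose range (16.6 to 19.4) overlapped those of Nr0b2 (from 18.98) and Cyp8b1 (up to 17.3). Then came Cyp7b1 (11.8), Abcb11 (9.85), Cyp8b1 (7.52) and Cyp7a1 (1.06), each overlapping its neighbour. Fasted knockout-labelled liver had nearly the same order, with Cyp27a1 at 94.5, Slc27a5 at 62.3, Cyp8b1 at 1.94 and Cyp7a1 at 0.0445.

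**Figure D4:**
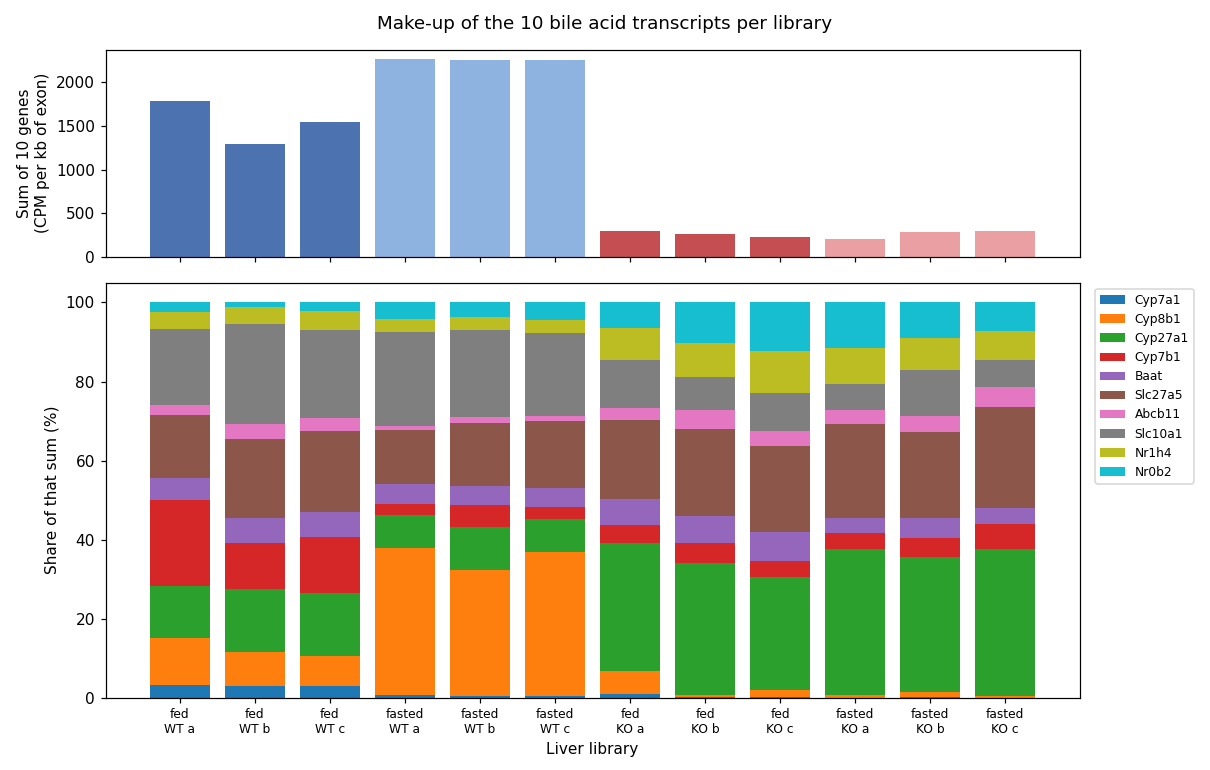
Summed level of the 10 genes in CPM per kilobase of exon in each library, and the share of that sum taken by each gene. The sum was 1295 to 1783 in fed and 2248 to 2260 in fasted wild-type libraries against 222 to 298 and 208 to 297 in knockout-labelled ones, where Cyp27a1 and Slc27a5 made up more than 50% of it.

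The makeup of the summed level changed with genotype as well as its size. Cyp8b1 made up 9.34% ± 2.17 (SD, n = 3) of the summed level in fed wild-type and 35.2% ± 2.87 in fasted wild-type libraries, but 2.695% ± 2.78 and 0.731% ± 0.453 in knockout-labelled ones. Cyp27a1 went from 15.1% and 9.18% in wild type to 31.5% ± 2.57 and 36.2% ± 1.63 in knockout-labelled liver. Slc10a1 took 22.3% of the sum in both wild-type groups and 9.96% and 8.34% in the knockout-labelled groups. Nr0b2 went from 1.90% and 4.07% to 9.60% and 9.22%. Its own level did not rise, with means of 34.2 and 104 CPM in fed and fasted wild-type and 27.5 and 26.5 in knockout-labelled liver. Cyp27a1, whose share also rose, was called lower in both feeding states on TMM scaling. These shares are descriptions of the same levels and add no test.

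Genes with a like pattern over the 12 libraries were sought by the root mean square difference of log2 CPM, each gene centred on its own mean, among 13065 named genes. Closest to Slc27a5 were Pigr (0.119), Il1rap (0.133) and the urate oxidase gene Uox (0.135). Nr1h4 was nearest to Msrb1 (0.089), Lactb2 (0.096) and the hepatocyte marker Vtn (0.114), and Cyp27a1 to Ttr (0.136), the gene whose promoter drives Cre here, Bckdhb (0.167) and Enpp2 (0.167). For Baat the nearest were Fgf1 (0.158), Cmah (0.196) and Aspdh (0.202), and for Abcb11 they were Dnaja1 (0.208), Fggy (0.224) and Ero1lb (0.261). Slc10a1 was nearest to Hal (0.347), Cyp7b1 to Slc22a30 (0.417), and Nr0b2 to Grhpr (0.325), the fatty acid oxidation gene Cpt1a (0.348) and Zfand6 (0.368). Cyp7a1 and Cyp8b1 had 0 genes within 0.5, their nearest being Upp2 (1.39) and Slc6a16 (1.31), and Cyp8b1 was next nearest to the gluconeogenic gene G6pc (1.33). Among the 45 pairs of the 10 genes, Cyp27a1 and Nr1h4 were closest (0.30), then Cyp27a1 with Abcb11 and Baat with Slc27a5 (0.40 each). The libraries of a group share their treatment, so these distances mostly describe the 4 group means.

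Other genes of the same pathways were taken from lists. Of 16 other synthesis genes 14 were tested, and on TMM scaling 10 were lower and 2 higher in fed knockout-labelled liver (median -0.83), and 11 lower and 1 higher in fasted (median -1.29). Of all tested features, 23% were lower and 23.4% higher in fed liver, and 28.1% and 28.2% in fasted. The steroid ring reductases Akr1d1 (-2.75 fed and -3.29 fasted) and Akr1c6 (-2.83 and -3.25) fell most. Among peroxisomal side-chain genes, Slc27a2 (-1.60 and -2.73), Scp2 (-0.95 and -2.12), Amacr (-1.03 and -1.70) and Hsd17b4 (-0.70 and -1.41) were also called lower on TMM scaling. Acox2, the side-chain oxidase, was instead called higher in fed liver (0.37, adjusted p = 0.0285) and differed by -0.28 in fasted liver (adjusted p = 0.0766), and Acot8 differed by -0.28 in fed liver (adjusted p = 0.127) and was lower in fasted (-1.21). In wild type 7 of 14 rose with fasting and 1 fell, against 12.4% and 14% of all tested features. Slc27a2 stood at 1.10, Scp2 at 1.05 and Hsd17b4 at 0.84 (adjusted p = 0.000299, 0.000376 and 0.000222). A link between these rises and the fall of Cyp7a1, a call lost with DESeq2, was not tested. The 1 of these 14 that fell was Cyp2c70, the mouse enzyme that makes muricholic acids, from 519 ± 48.4 to 37.1 ± 18.0 CPM (SD, n = 3; -3.81 ± 0.32, adjusted p = 1.26e-06). Its knockout-labelled levels were 87.8 ± 23.0 fed and 70.2 ± 26.0 fasted, and its fasting change differed between genotypes (3.48 ± 0.42, adjusted p = 0.000128).

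Of 19 other transport genes 18 were tested. On TMM scaling, in fed knockout-labelled liver 6 were lower and 5 higher (median -0.15), against 23% and 23.4% of all tested features. In fasted liver 11 were lower and 6 higher (median -0.82), against 28.1% and 28.2%. The counts of higher genes are near those shares. Several uptake carriers were low. Slco1b2 went from 648.5 ± 70.2 to 95.6 ± 19.3 CPM in fed liver (-2.76 ± 0.28, adjusted p = 1.24e-06), and Slco1a1, which is also on the male-biased list, from 176 ± 132 to 4.68 ± 3.06 CPM (-5.22 ± 0.67, adjusted p = 1.31e-05). Slc22a7 was lower by 6.82 ± 0.48 on the log2 scale and Slc10a5, related to Slc10a1, by 2.56 ± 0.17. On the basolateral export side Abcc4 (MRP4) was higher, 11.7 ± 3.94 against 91.6 ± 11.3 CPM in fed and 6.54 ± 1.09 against 72.4 ± 10.98 CPM in fasted liver (2.97 ± 0.20 and 3.47 ± 0.22, adjusted p = 3.25e-08 and 1e-08). Abcc3, another exporter on the list, was called higher in fed liver (0.66, adjusted p = 0.000333) and differed by 0.21 in fasted liver (adjusted p = 0.152). Slc51b, a subunit of a further basolateral exporter, differed by -0.44 in fed liver (adjusted p = 0.649). It was higher in fasted liver (3.07, adjusted p = 0.00677) at 0.474 ± 0.186 against 4.13 ± 4.14 CPM, while Slc51a was at 0 counts in every library. Other genes of the list were also called higher, among them Atp8b1 (0.34 fed and 1.44 fasted, adjusted p = 0.0219 and 9.03e-08). Abcb1a differed by 0.46 in fed (adjusted p = 0.158) and 3.24 in fasted liver (adjusted p = 2.46e-07). Abcc2 (-0.61), Abcb4 (-0.83), Abcg2 (-0.81), Abcg5 (-1.45) and Abcg8 (-1.62) were called lower in fasted liver.

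With fasting in wild type, 7 of the 18 tested transport genes rose and 5 fell (median -0.03), against 12.4% and 14% of all tested features. The canalicular phospholipid and sterol exporters Abcb4 (1.17) and Abcg8 (1.59) rose (adjusted p = 4.33e-06 and 1.68e-05), and Atp8b1 (-1.01) and Abcb1a (-1.49) fell (adjusted p = 2.16e-05 and 0.00236). In knockout-labelled liver Abcb4 differed by 0.19 and Abcg8 by -0.17 (adjusted p = 0.417 and 0.673), and the difference from wild type was -0.98 and -1.76 (adjusted p = 0.00111 and 0.000456).

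Of 22 other sensing and regulation genes 19 were tested, and on TMM scaling 12 were lower and 2 higher in fed knockout-labelled liver (median -0.61), and 15 lower and 1 higher in fasted (median -0.77). The shares of all tested features were 23% lower and 23.4% higher in fed and 28.1% and 28.2% in fasted liver. Hnf4a, a main hepatocyte factor that drives Cyp8b1 and Cyp7a1, stood at 986 ± 37.2 and 1034 ± 162 CPM in fed and fasted wild type and at 535.5 ± 19.6 and 528 ± 101 in knockout-labelled liver (on TMM scaling -0.88 ± 0.14 and -0.97 ± 0.14, adjusted p = 0.000141 and 3.88e-05). Nr5a2, whose site is in the Cyp8b1 window printed above, differed by -0.20 in fed liver (adjusted p = 0.185) and -0.57 in fasted (adjusted p = 0.00086). Klb, the coreceptor for the intestinal signal Fgf15 on hepatocytes, was on TMM scaling lower by 1.33 ± 0.29 in fed and 2.80 ± 0.31 in fasted liver, and its partner Fgfr4 by 0.61 ± 0.12 in fed liver. With hepatocyte markers held equal Klb differed by -0.25 in fed (adjusted p = 0.432) and -1.49 in fasted liver (adjusted p = 0.000386). The xenobiotic and bile acid sensor Nr1i3 (CAR) rose with fasting in wild type (1.92 ± 0.20, adjusted p = 5.77e-06) and changed by -0.15 in knockout-labelled liver (adjusted p = 0.756; difference -2.07, adjusted p = 0.000307). The coactivator Ppargc1a rose in wild type (2.25 ± 0.28) and fell in knockout-labelled liver (-1.21 ± 0.27, adjusted p = 0.0432), a difference of -3.46 ± 0.39 (adjusted p = 7.63e-05). S1pr2, a receptor for conjugated bile acids, was the main exception to the low levels, 1.92 ± 0.17 higher in fed and 2.37 ± 0.18 higher in fasted knockout-labelled liver (adjusted p = 4.2e-07 and 4.71e-08).

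**Figure D5:**
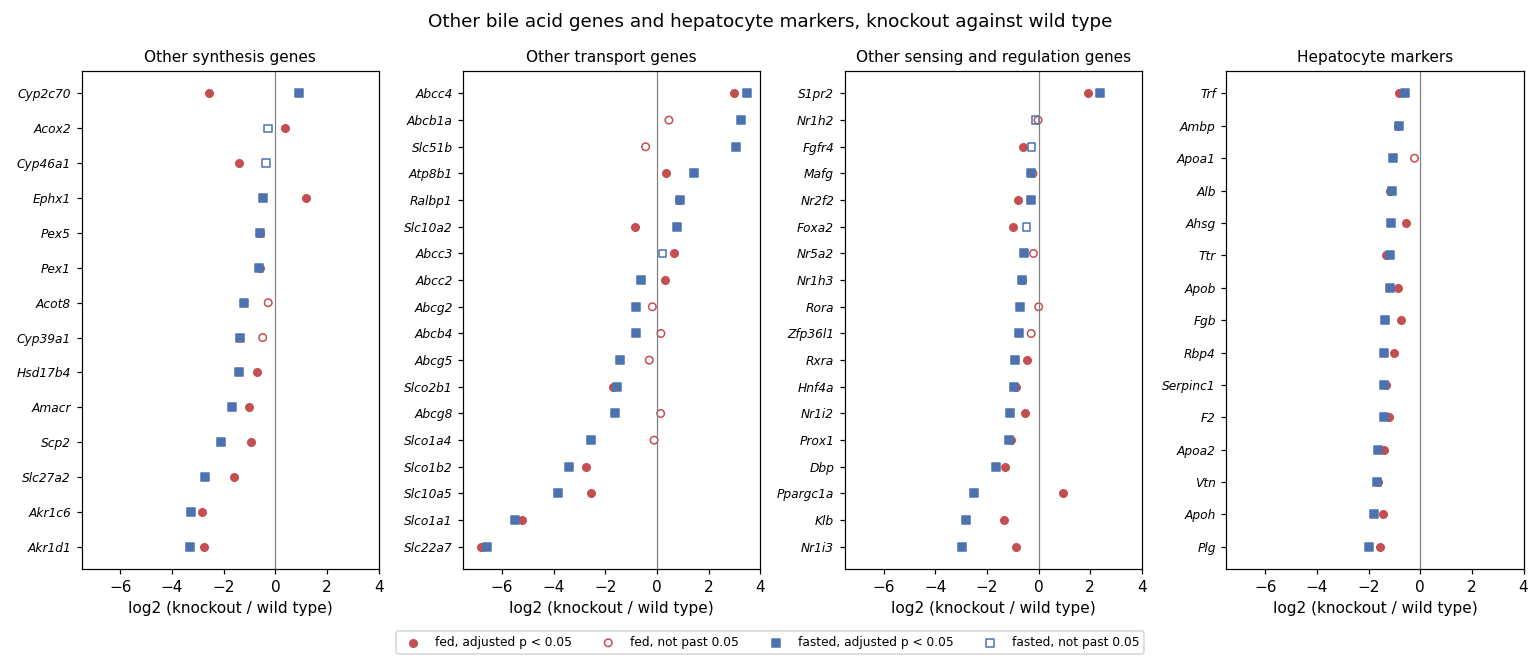
Log2 fold change of knockout-labelled against wild-type liver in fed and fasted mice for most of the other tested bile acid synthesis, transport and sensing genes and for hepatocyte markers; filled points passed adjusted p of 0.05. Akr1d1, Akr1c6, Slco1a1, Slco1b2 and Slc22a7 lie well below the hepatocyte markers, and Abcc4 and S1pr2 above 0.

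The calls in these lists depended on scaling more than those of the 10 genes did. The values themselves moved by similar amounts, in fed liver from a median of -2.38 to -1.30 for the 10 genes and from -0.83 to 0.25 for synthesis genes. The 10 genes started further below 0. With hepatocyte markers held equal, 74.7% of all tested features were called higher and 5.21% lower in fed knockout-labelled liver. In fasted liver these were 77.2% and 5.77%, and the medians of all features were 1.09 fed and 1.32 fasted. All list medians given next lie below these. Synthesis genes numbered 4 lower and 6 higher in fed and 5 lower and 6 higher in fasted knockout-labelled liver (medians 0.25 and 0.03). Transport genes then numbered 5 lower and 10 higher in each (medians 0.92 and 0.49), and sensing and regulation genes 0 lower and 12 higher fed and 3 lower and 12 higher fasted (medians 0.47 and 0.55). On that scale Hnf4a changed sign (0.20 fed and 0.34 fasted), as did Amacr, Scp2, Hsd17b4 and Fgfr4 in fed liver and Nr5a2 in fasted liver. With library sizes alone the transport median in fed liver became 0.22. The share of these differences that goes with the lower hepatocyte markers and the higher macrophage and cholangiocyte markers was not tested. On TMM scaling macrophage markers were called higher in 10 of 12 genes fed and 12 of 12 fasted, and cholangiocyte markers in 3 of 10 and 7 of 10. On that scaling 23.4% of all tested features were called higher in fed and 28.2% in fasted liver.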

How the data were processed

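Raw read counts per feature were deposited by the authors for 12 liver libraries. Per the submitters' processing notes, HISAT2, Subread, DESeq2, edgeR and build mm10 were used, with no versions; strand setting and filters are not given in the sources used here. Per the labels' protocols, libraries were stranded and polyA-selected. The deposited column headers give the group and no replicate number, so libraries are called a, b and c in header order. Whether they are separate mice is not stated, and p-values measure the spread between these samples, which may be technical. Libraries of a group differed by more than counting error (chi-square over its degrees of freedom 7.40 to 16.7, where 1 is counting error). The table holds 136300 features, 48526 with Ensembl identifiers, of which 48058 matched a symbol in GENCODE M21, the source of positions and exon lengths. Features with NONCODE identifiers took 20.5% to 24.8% of counts.

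Counts of the 12 libraries were filtered with filterByExpr (23875 features left), scaled by TMM (factors 0.801 to 1.22) and tested with edgeR 4.0.16's quasi-likelihood F test in R 4.3.3, with 1 mean per group. Benjamini-Hochberg adjustment ran over all tested features, with a threshold of 0.05. The standard error was taken as the size of the log2 fold change over the root of its F value. The 5 comparisons were fasting within each genotype, genotype within each feeding state, and their interaction. Counting intervals at 95% cover counting error only. Steps were tested on simulated data.

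All 10 genes are named whatever their p, with Pik3r4. Genes of the other lists (synthesis, transport, sensing, hepatocyte, cholangiocyte, macrophage, male-biased and female-biased) are named first by smallest adjusted p. The 3 nearest genes by pattern are sought for each member. Members and lists were chosen with earlier results of these data known. Alternatives were DESeq2 1.42.0, RLE factors, library sizes alone, hepatocyte markers held equal, no filter on low counts, Ensembl features only, fits on the compared groups only, and leaving out 1 library at a time. The fibroblast libraries among the 36 of the series were not used.

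A few items among the listed genes and motifs are not reported here; counts over the lists include them.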

Additional observations from a re-analysis of the deposited data

Results flagged for a closer look

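The effect of fasting differed between wild-type and knockout-labelled liver for 4 of the 10 genes by the interaction term of edgeR's quasi-likelihood test, with adjusted p taken over all tested features. For Cyp8b1 the difference in log2 fold change was -4.37 (adjusted p = 0.00503), with all fasted wild-type libraries above all fed ones and overlapping groups in knockout-labelled liver. For Nr0b2 it was -1.65 (adjusted p = 0.0097), and for Baat it was -0.89 (adjusted p = 0.0182). For Cyp7b1 it was 1.73 (adjusted p = 0.0336). The calls for Cyp8b1 and Nr0b2 held with each of the 12 libraries left out, and those for Baat and Cyp7b1 did not.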

How the results depend on the processing

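Of 695 recomputed values of single genes, 637 kept their direction and their side of the threshold, 12 lost and 26 gained the call, and 20 changed sign. The count for fasting in knockout-labelled liver, 332 features, moved most as a ratio: 894 with DESeq2, 1558 without the filter on low counts, 518 with Ensembl features only, 27 with only the compared groups, and 4 to 1242 with 1 library left out. It was 4 without fasted knockout-labelled a or c, 15 and 51 without fed knockout-labelled a and c, and 1242 without fasted knockout-labelled b. Of the 10 genes, 0 passed there, but 2 did with DESeq2, 1 with library sizes alone, with hepatocyte markers held equal or with Ensembl features only, 3 without the filter, and 0 to 2 with 1 library left out. DESeq2 called 3 of the 10 for fasting in wild type, where edgeR called 5. Without the filter 7 of the 10 passed for the interaction, against 4. In edgeR with the filter, 6290 of all 23875 tested features passed for fasting in wild type and 2879 for the interaction. The counts over all features for these comparisons with DESeq2 and without the filter are not given here, so the member counts cannot be weighed against them. In fed liver 19083 features passed with hepatocyte markers held equal (17840 higher), against 11060. The cause of these moves was not tested.

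With library sizes alone the sign changed for Nr1h4 with fasting in wild type (-0.11), Nr0b2 in fed knockout-labelled liver (0.061) and the Slc27a5 interaction (0.0093), and the median of all features moved to -0.19 for fasting in wild type, 0.39 and 0.52 for genotype in fed and fasted liver and 0.15 for the interaction. With hepatocyte markers held equal it changed for Baat (-0.032) and Nr1h4 (-0.16) with fasting in wild type, Nr0b2 in fed (0.76) and Cyp27a1 in fasted knockout-labelled liver (0.17), and the Slc27a5 interaction (0.11). Without the filter it changed for Nr1h4 with fasting in wild type (-0.016) and the Slc27a5 interaction (0.0060). With 1 library left out, the values of genes that changed sign ranged from -0.66 to 0.0052 for Nr0b2 in fed knockout-labelled liver, -0.048 to 0.15 for Nr1h4 with fasting in wild type and -0.29 to 0.020 for the Slc27a5 interaction. For fasting in knockout-labelled liver they were -0.63 to 0.053 for Slc10a1, -0.20 to 0.033 for Nr0b2, -0.11 to 0.45 for Cyp7b1 and -0.088 to 0.39 for Abcb11.

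No paired analysis was possible because the liver columns carry no replicate numbers. Depth limits Cyp7a1 in fasted knockout-labelled liver, at 1 to 6 counts a library.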
